A study of Mus musculus with 10 samples.

Results

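The results below describe 1 of the 4 unnamed comparisons that stand side by side in the authors' deposited table, the fourth, and set it against the third. Its members were all genes with a base mean (size-scaled reads, averaged across all libraries of a comparison) of at least 2 CPM, here parts in 1000000 of the comparison's summed base means. There were 13599 such genes among the 32113 listed in the fourth comparison and the 35395 identifiers of the whole table. Per the labels, the series profiled RNA of epididymal fat from male C57BL/6 mice in 10 samples. Mice made obese on a high-fat diet received an adenovirus carrying IGF2 (Ad-IGF2, 2 samples) or green fluorescent protein (Ad-GFP, 3 samples) directly into this fat, 2 times a week for 4 weeks, with expression from a CMV promoter that is not restricted to fat cells. Mice of 3 to 4 weeks received a lentivirus with a hairpin against IGF2 (IGF2-RNAi, 2 samples) or a control (NC-RNAi, 3 samples) through the tail vein, a route that is not restricted to fat either. The labels' extraction text speaks of treated cells, with no further detail. None of the 4 comparisons could be tied to these groups: 0 of the 35395 identifiers occur among 55450 mouse gene identifiers, and the table's identifiers and symbols are those of human genes. Hence only what the table holds is described, and nothing is said of IGF2 in mouse fat.

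The fourth comparison sets a numerator set of 2 libraries against a second reference set of 2 libraries, and the third sets the same numerator libraries against a first reference set of 2 others. The sets carry no genotype, treatment, time or donor, and the library numbers within a set are arbitrary. Nothing states that libraries of a set came from separate cultures, animals or donors, so that the p-values measure only the spread between these libraries. Base means are sums of whole reads, each worth a fixed amount per library, and this allowed the reads of all 6 libraries to be recovered for all 13599 members. The log2 fold change computed from these reads lay within 0.1 of the one in the authors' deposited table for 13584 members. Values called normalised reads below are these reads divided by a library's size factor, while fold changes, standard errors (SE) and adjusted p-values are those of the authors' deposited table unless a test is named.

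As background, cells that meet unfolded protein, lack of amino acids or oxidative damage answer through a few shared programmes. Heat shock factor raises chaperones of the HSP70, HSP40 and small heat shock families in the cytosol. The kinase PERK and other kinases of translation factor eIF2 lead to translation of ATF4, which raises amino acid transport and synthesis genes, while IRE1 and ATF6 raise the folding and disposal machinery of the endoplasmic reticulum. Dividing cells under such stress commonly leave the cell cycle, and genes of mitosis and DNA replication then have fewer transcripts. NF-kappaB and interferon programmes raise chemokines, feedback inhibitors and antiviral genes.

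Recovered depth was 14753510 and 12218881 reads in the numerator libraries, 16132379 and 16250800 in the second reference libraries, and 21132383 and 16921403 in the first reference libraries. Genes encoded by mitochondrial DNA took 4.45% to 5.16% of reads in the 6 libraries. Over 11478 genes with at least 50 normalised reads in the mean of every set, the SD of the log2 ratio between the 2 libraries of a set was 0.26 in the numerator, 0.36 in the second and 0.32 in the first reference set, against 0.43 between the means of the first and the second reference. The labelled tissue could not be recognised. ADIPOQ, the gene of adiponectin, a hormone secreted by fat cells, had 2 and 1 reads in the numerator libraries and 0 and 0 in the second reference libraries. CFD, LEP and LPL had at most 5 reads in any of the 6 libraries, and PLIN1, FABP4 and PPARG at most 16, 13 and 6. The 15 adipocyte markers listed summed to 97.4 to 162 CPM in the 6 libraries, with PNPLA2 the highest of their members. PTPRC, the common marker of blood cells, had at most 2 reads in any of the 6 libraries.

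Of the 13599 members, 6390 (47.0%) had an adjusted p under 0.05 in the authors' deposited table, against 34.7% of all 22151 genes with an adjusted p. Higher levels in the numerator were called for 2630 (19.3%) and lower levels for 3760 (27.6%). The median log2 fold change of all members in the authors' deposited table was -0.15, and relative to this median 3320 of 6362 called genes (52.2%) were higher, where 41.2% of the 6390 were higher without that shift. In the mean of the second reference libraries 816 members lay below the floor, so that they are members through the numerator alone, and 614 of them were called higher. Conversely, 303 members lay below it in the numerator, of which 123 were called lower. The member closest to the floor was RUNX1T1, at 2.00067 CPM, and RAP2C-AS1 was just outside it at 1.99866 CPM. The authors' deposited table put RUNX1T1 at 1.80 on the log2 scale (SE 0.64) and RAP2C-AS1 at 0.71 (SE 0.62). As in any bulk measurement, fewer cells of a kind and fewer transcripts per cell cannot be told apart.

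The 10 largest rises among called members with at least 50 normalised reads on their lower side began with a pair of HSP70 chaperone genes. HSPA1A, an inducible cytosolic HSP70 chaperone (ENSG00000204389), had 53229 and 41412 normalised reads in the numerator libraries, against 397 and 513 in the second reference libraries and 1493 and 629 in the first. The authors' deposited table gave it a log2 fold change of 6.55 (SE 0.19, adjusted p = 9.73e-247). Its near-identical neighbour HSPA1B had 28433 and 19786 normalised reads in the numerator against 368 and 451 in the second reference, and reads of the pair may have been shared between both genes, since the counting is not given in the sources used here. Both genes were higher in each numerator library than in each of the 4 reference libraries.

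Signalling genes followed. TRAF1, an adaptor of tumour necrosis factor receptors, had 2274 and 1788 normalised reads in the numerator against 77.5 and 94.3 in the second reference. TNFAIP3, which encodes the NF-kappaB inhibitor A20, had 3641 and 1961 against 148 and 167. ATF3, a stress transcription factor downstream of ATF4, had 2561 and 1713 against 103 and 104. The authors' deposited table put their log2 fold changes at 4.42 (SE 0.23), 4.00 (SE 0.26) and 4.22 (SE 0.24), with adjusted p of 4.76e-78, 2.23e-49 and 9.36e-66. HMOX1, the haem-degrading enzyme heme oxygenase, had 4059 and 5170 normalised reads in the numerator against 192 and 278 in the second reference. ERN1, which encodes the endoplasmic reticulum stress sensor IRE1, had 2683 and 2045 against 152 and 112, and HERPUD1, a component of protein disposal at that organelle, had 10482 and 9393 against 585 and 644. SPTBN5, a spectrin gene, and ALDH1L2, a mitochondrial enzyme of folate metabolism, completed the 10 largest rises, and the authors' deposited table put their log2 fold changes at 4.23 (SE 0.24) and 3.96 (SE 0.23). For all 10, the groups of the fourth comparison did not overlap, which their choice as the largest called rises made nearly certain.

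**Figure D1:**
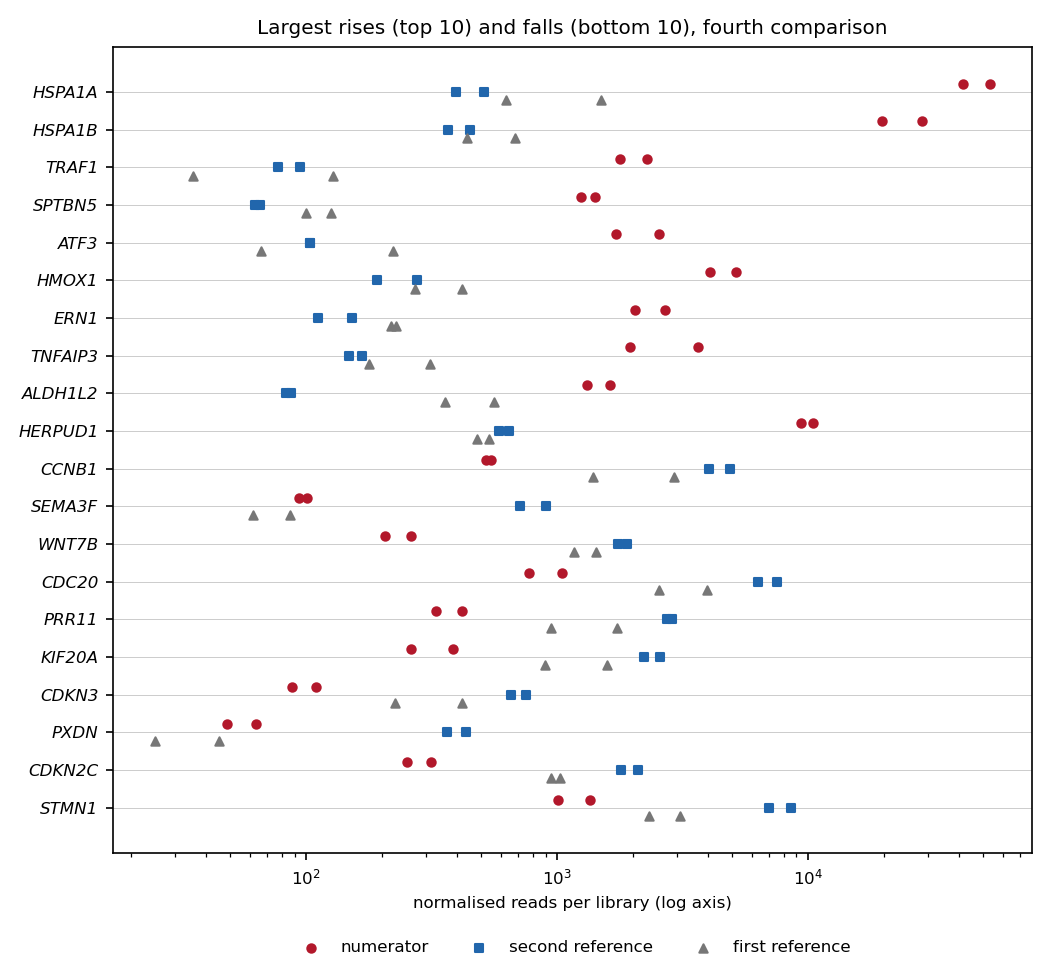
Normalised reads (log axis) of the 10 largest rises and 10 largest falls of the fourth comparison in each of the 2 numerator (circles), 2 second reference (squares) and 2 first reference libraries (triangles). Numerator and second reference libraries are separate for all 20 genes, which their choice by size of change made nearly certain. For SEMA3F and PXDN the first reference lies on the numerator's side.

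Of the 10 largest falls under the same limit, 7 were genes known from cell division or its control, a number with no test. CCNB1, the cyclin that starts mitosis, had 546 and 524 normalised reads in the numerator against 4040 and 4910 in the second reference and 1386 and 2919 in the first. CDC20, an activator of the anaphase-promoting complex, had 772 and 1045 against 6346 and 7533 in the second reference. KIF20A, a kinesin of cytokinesis, had 262 and 384 against 2575 and 2222. Their log2 fold changes, from the authors' deposited table, were -3.21 (SE 0.19), -3.08 (SE 0.20) and -3.04 (SE 0.22), with adjusted p of 5.07e-64, 2.36e-49 and 2.07e-39. PRR11, CDKN3, the cyclin-dependent kinase inhibitor CDKN2C and the microtubule destabiliser STMN1 had log2 values between -3.06 and -2.87 according to the authors' deposited table.

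Outside the cell cycle, 3 genes were among the 10 largest falls. WNT7B, a secreted Wnt ligand, had 206 and 263 normalised reads in the numerator against 1747 and 1903 in the second reference, and the authors' deposited table listed it at -3.11 on the log2 scale (SE 0.21, adjusted p = 7.82e-46). SEMA3F, a secreted semaphorin known for repelling growing axons, had 101 and 94.1 against 714 and 908, and PXDN, a peroxidase that crosslinks basement membrane collagen, had 63.2 and 48.3 against 435 and 365. In the authors' deposited table these came to -3.21 (SE 0.25, adjusted p = 2.67e-34) and -2.99 (SE 0.31, adjusted p = 1.49e-20). Unlike WNT7B, SEMA3F and PXDN were not low against the first reference, as described with the differences between the comparisons.

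Gene lists for stress, division, metabolism and matrix were read against the share of all members called. Of 28 members of the heat shock list, 24 rose and 1 fell, against 19.3% and 27.6% of all members, and the median of their log2 fold changes, taken from the authors' deposited table, was 1.37. HSPA6, an HSP70 chaperone with little basal expression, had 33837 and 23940 normalised reads in the numerator against 13.9 and 29.7 in the second reference. Its second reference mean of 21.8 lay below the floor, which came to 29.4 normalised reads, so that HSPA6 is a member through the numerator alone. Counts of rises and medians of lists with such genes partly follow from the floor. DNAJB1, an HSP40 co-chaperone, had 23454 and 17200 against 2579 and 2918, which the authors' deposited table lists at 2.74 on the log2 scale (SE 0.19, adjusted p = 1.31e-45). The member that fell, named after its value was seen, was HSF1, the heat shock factor itself, at -0.51 (SE 0.21, adjusted p = 0.0406) in the authors' deposited table, and limma on the recovered reads did not call it lower.

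The PERK and ATF4 list rose in 23 of 25 members and fell in 1, and its median, from the authors' deposited table, was 1.77. CHAC1, which degrades glutathione, had 1633 and 1188 normalised reads in the numerator against 41.7 and 34.9 in the second reference. SLC7A11, the cystine importer, had 6883 and 6005 against 574 and 474, and its partner subunit SLC3A2 had 18787 and 15261 against 1811 and 2475. From the authors' deposited table, the log2 fold changes were 5.05 (SE 0.28), 3.47 (SE 0.18) and 2.84 (SE 0.20), with adjusted p of 3.74e-71, 1.19e-76 and 6.38e-45. The single fall, likewise named after its value was seen, was ATF5, a transcription factor of the same family as ATF4, at -0.84 (SE 0.21, adjusted p = 0.000389) in the authors' deposited table.

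Among 28 members of the IRE1 and ATF6 list, 22 rose and none fell, and the median was 0.74 by the authors' deposited table. HSPA5, the HSP70 chaperone of the endoplasmic reticulum, had 66181 and 67497 normalised reads in the numerator against 13186 and 14495 in the second reference. DNAJB9, its co-chaperone, had 3302 and 2718 against 218 and 210. The authors' deposited table put HSPA5 at 2.13 on the log2 scale (SE 0.16, adjusted p = 7.77e-38) and DNAJB9 at 3.66 (SE 0.20, adjusted p = 4.51e-74). Of 21 amino acid and solute carriers, 12 rose and 5 fell, among them SLC7A5, the large neutral amino acid transporter, with 23447 and 19989 normalised reads in the numerator against 3998 and 4012.

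Inflammatory lists were also higher. Of 22 NF-kappaB targets 17 rose and 1, the chemokine gene CCL2 (named after its value was seen), fell, and the median was 2.30 by the authors' deposited table. CXCL8, the gene of interleukin 8, had 4454 and 2447 normalised reads in the numerator against 312 and 246 in the second reference, and IL32 had 1168 and 1186 against 96.3 and 130. Of 27 interferon response genes 15 rose and none fell, with IFIT2, an antiviral protein that binds RNA, at 1135 and 633 against 52.6 and 58.4. The immediate early list mostly rose, with 15 of 26 higher and 2 lower. EGR1, a zinc finger factor that responds to growth signals, had 2897 and 1355 normalised reads in the numerator against 19.9 and 25.6 in the second reference, whereas IER3 had 1279 and 1472 against 4313 and 5060. The authors' deposited table put EGR1 at 6.39 on the log2 scale (SE 0.60, adjusted p = 1.45e-24) and IER3 at -1.91 (SE 0.18, adjusted p = 2.98e-23). Second reference means were below the floor of 29.4 normalised reads for EGR1 (22.7) and KLF4 (4.05) of the immediate early list. The same held for RSAD2 (7.59) and IFI27 (23.2) of the interferon list. These genes are members through the numerator alone, and the counts of rises include them.

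All 30 mitosis genes and 27 of 30 DNA replication genes fell and none of either list rose, and the list medians were -1.99 and -0.98 by the authors' deposited table. PLK1, a kinase of mitotic entry, had 960 and 1045 normalised reads in the numerator against 4593 and 5375 in the second reference. TYMS, which makes thymidylate, had 1063 and 1316 against 3572 and 3906, and RRM2, a subunit of ribonucleotide reductase, had 1031 and 1283 against 3350 and 3511. The authors' deposited table put TYMS at -1.80 on the log2 scale (SE 0.19, adjusted p = 1.64e-19) and RRM2 at -1.71 (SE 0.19, adjusted p = 8.55e-18). With all 6 libraries, limma on the recovered reads called 25 of the 30 replication genes and all 30 mitosis genes lower. Over all members it called 24.5% lower and 51.5% in either direction. List levels per library were taken as the median log2 value of the list relative to the mean of the 6 libraries. The replication list was at -0.77 and -0.41 in numerator libraries 1 and 2, against 0.21 and 0.34 in the second reference libraries. For mitosis the levels were -1.32 and -1.04 against 0.78 and 0.79.

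Genes of energy metabolism and protein turnover were lower as well. Of 29 oxidative phosphorylation genes 19 fell and none rose, of 27 proteasome genes 23 fell and none rose, and of 30 cytosolic ribosomal protein genes 14 fell and none rose. By the authors' deposited table, their medians were -0.77, -0.80 and -0.46. NDUFB10, a subunit of complex I, had 504 and 566 normalised reads in the numerator against 1412 and 1973 in the second reference, and PSMD2, of the proteasome's regulatory particle, had 6374 and 7802 against 19952 and 22527. RPS2, of the small ribosomal subunit, had 13903 and 15627 against 26668 and 37241. Its family has many processed pseudogenes, between which reads can be split. These lists moved with second reference library 2, which was the higher of its set: the median log2 ratio of library 2 over library 1 was 0.48 for ribosomal protein genes, 0.43 for oxidative phosphorylation and 0.29 for the proteasome, against 0.02 for all members. With all 6 libraries limma called 9 ribosomal, 18 oxidative phosphorylation and 21 proteasome genes lower, against 24.5% of all members. The ribosomal list's median level was -0.14 and -0.08 in numerator libraries 1 and 2. It was -0.05 and 0.40 in second reference libraries 1 and 2. For oxidative phosphorylation the levels were -0.36 and -0.23 against 0.19 and 0.57, and for the proteasome -0.31 and -0.23 against 0.20 and 0.50.

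Glycolysis genes fell in 15 of 23 members and rose in 3, and the median was -0.72 by the authors' deposited table. LDHA, lactate dehydrogenase, had 6783 and 8225 normalised reads in the numerator against 29437 and 32437 in the second reference. The glucose transporters went opposite ways. SLC2A1 had 2733 and 3021 against 6708 and 7203, and SLC2A3 had 1943 and 1711 against 518 and 404, and the authors' deposited table put SLC2A1 at -1.42 on the log2 scale (SE 0.17, adjusted p = 3.21e-15) and SLC2A3 at 1.84 (SE 0.20, adjusted p = 1.59e-17). With all 6 libraries limma called 14 glycolysis genes lower, against 24.5% of all members. The list's median level was -0.48 and -0.31 in numerator libraries 1 and 2, against 0.11 and 0.21 in the second reference libraries.

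The remaining lists were mixed. Autophagy and lysosome genes rose in 9 of 26 members and fell in 3, led by MAP1LC3B, whose product lines autophagosomes, with 6600 and 5278 normalised reads in the numerator against 1162 and 1187 in the second reference. Targets of p53 rose in 9 of 23 and fell in 3, targets of NRF2, the factor of the antioxidant response, rose in 8 of 21 and fell in 5, and Notch pathway genes rose in 7 of 15 and fell in 2. Sterol synthesis genes fell in 8 of 24 and rose in 3, fatty acid and triglyceride synthesis genes fell in 10 of 26 and rose in 4, and 1 of 4 metallothionein list members rose while 2 fell. Collagens and matrix genes rose in 10 of 30 and fell in 6. LAMB3, a laminin chain of epithelial basement membranes, had 40879 and 35152 normalised reads in the numerator against 10284 and 10458 in the second reference, and THBS1, a secreted matrix glycoprotein that activates TGF-beta, had 9207 and 8617 against 54964 and 33942.

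Falls outnumbered rises over all members (27.6% against 19.3%), and the other lists of signalling and the cell surface are given beside that without a test. In these lists rises outnumbered falls among YAP and TEAD targets (6 rose and 4 fell of 21) and in the insulin-like growth factor system (5 and 3 of 15). Matrix proteases and inhibitors rose in 3 and fell in 8 of 23, cell adhesion molecules in 4 and 10 of 28, actin and myosin cytoskeleton genes in 3 and 14 of 28, TGF-beta and SMAD genes in 4 and 9 of 27, receptor tyrosine kinases and ligands in 6 and 10 of 24, and Wnt pathway genes in 2 and 8 of 21. The median of the cell adhesion list was -0.13 in the authors' deposited table and 0.02 relative to the median of all members, so that its direction depended on the scaling. TGFB1, the ligand TGF-beta 1, had 1308 and 1575 normalised reads in the numerator against 3757 and 4694 in the second reference, and TGFA, a ligand of the EGF receptor, had 1329 and 1370 against 4798 and 3305. NOTCH1, a receptor, had 2961 and 2505 against 883 and 630. ACTA2, smooth muscle actin, rose to 1852 and 1434 against 219 and 266, while VIM, the intermediate filament vimentin, fell to 29902 and 30017 against 87062 and 106570.

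**Figure D2:**
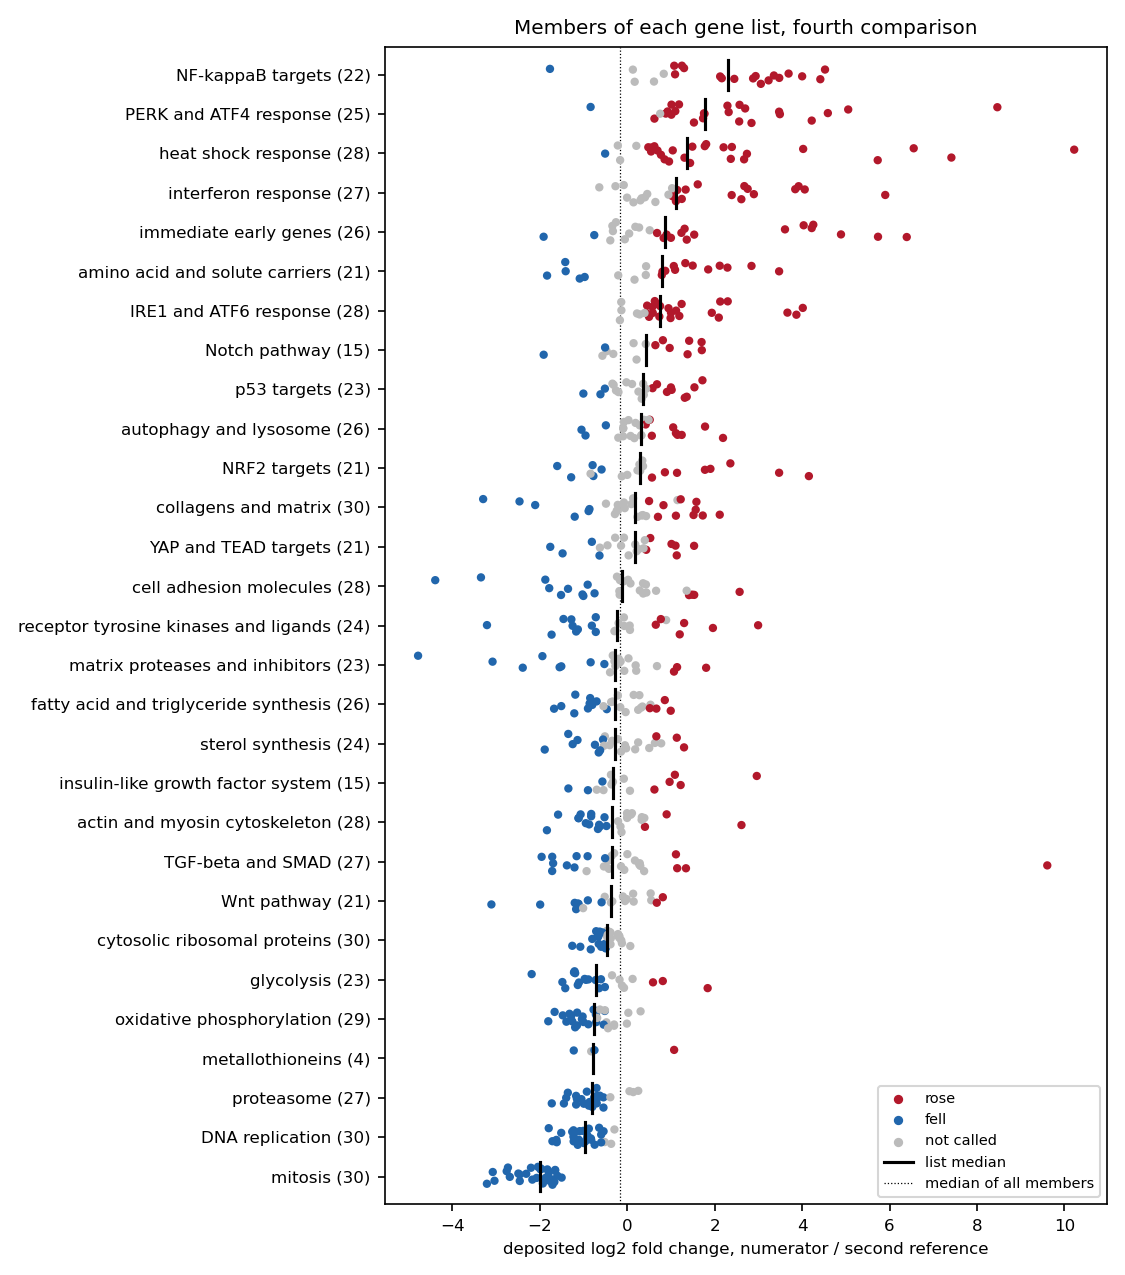
Log2 fold changes of the fourth comparison from the authors' deposited table (x axis) for the members of 29 gene lists (rows, with the number of members), coloured by direction where the adjusted p is under 0.05, with each list's median as a bar and the median of all members, -0.15, as a dotted line. The NF-kappaB and PERK and ATF4 lists have the highest medians, 2.30 and 1.77, and the mitosis list the lowest, -1.99. The point at 9.61 is BMP7, which had 0 reads in the second reference, so that its fitted value is no measured fold.

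The second question was what the fourth comparison shows that the third does not. Both were compared over the 13358 genes at or above the floor in each. The third called 5868 of them (43.9%), 2264 higher (16.9%) and the others lower. Since the numerator libraries are the same, a difference between the comparisons is a difference between the first and the second reference libraries. The difference of the 2 log2 fold changes of the authors' deposited table, divided by both standard errors combined, passed a Benjamini-Hochberg adjusted p of 0.05 in a two-sided normal test for 277 genes (2.07%). For 177 genes (1.33%) the fourth comparison was the higher and for 100 (0.749%) the lower. This test counts the numerator's error in both terms and is therefore strict. With the standard errors of the first and the second comparison, whose numerator is another set, it called 20. limma on the recovered reads called 1461 genes (10.9%), 810 higher (6.06%) and 651 lower (4.87%), among them all 277. Without second reference library 2 limma called 135 genes and kept 117 of the 277, whereas without second reference library 1 it called 2485 and kept 267. Each of these fits leaves 1 library in that set, which is assumed to vary like those of the other sets. A lost call alone thus does not say whether the difference became smaller. Among list genes with a called difference, most limma differences were smaller in size without second reference library 2, and a few were larger. The calls thus depended on that library.

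Most genes called in one comparison alone did not pass the difference test, which called 2.07% of all genes tested. Since that test is strict, a difference that it did not call is not shown to be absent. Of the 1872 genes called in the fourth comparison and not in the third, 756 higher and 1116 lower, the difference test called 65 and 40. Of the 1409 genes called in the third comparison and not in the fourth, 999 lower and 410 higher, it called 55 and 15. Genes called in opposite directions numbered 24, of which 19 were higher in the fourth comparison and lower in the third and 5 the reverse. The difference was called for all 24. Opposite calls already require a wide gap between the 2 fold changes, so that this outcome was nearly fixed by the selection. Of 4435 genes called in the same direction in both, it was called for 78.

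Among genes with at least 50 normalised reads in the mean of each set, the largest positive differences began with CDCP1 and DNAH6. CDCP1, a membrane glycoprotein phosphorylated by SRC kinases, had 909 and 905 normalised reads in the numerator, 233 and 97.4 in the second reference and 2425 and 1899 in the first. The authors' deposited table put its log2 fold change at 2.31 (SE 0.31, adjusted p = 6.91e-12) in the fourth comparison and -1.40 (SE 0.17, adjusted p = 7.18e-14) in the third, a difference of 3.70 (SE 0.36, adjusted p = 2.79e-21 by the normal test). DNAH6, an axonemal dynein chain, had 547 and 514 normalised reads in the numerator, 93.4 and 75.9 in the second reference and 1190 and 802 in the first. Numerator libraries thus lay between both references for these genes, without overlap.

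CD74, the invariant chain of MHC class II, had 529 and 439 normalised reads in the numerator, 82.4 and 114 in the second reference and 484 and 1296 in the first, and the first reference libraries overlapped the numerator. Its difference of 3.18 (SE 0.72, adjusted p = 0.00177) was 3.01 in limma with all 6 libraries, and 3.23 with an adjusted p of 0.0725 without second reference library 2. The call was also lost for DCT, a melanin pathway enzyme, whose difference by limma was 1.91 with all 6 libraries and 1.63 without that library (adjusted p = 0.0569). It had 337 and 267 normalised reads in the numerator, 69.5 and 47.2 in the second reference and 231 and 204 in the first.

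Further genes of this group were called in one comparison alone, or in both with unlike size. FRAS1, an extracellular matrix protein of basement membranes, had 446 and 393 normalised reads in the numerator, 94.3 and 50.2 in the second reference and 451 and 463 in the first. The authors' deposited table put its log2 fold change at 2.39 (SE 0.32, adjusted p = 4.85e-12) in the fourth and -0.27 (SE 0.21, adjusted p = 0.358) in the third comparison. TNFAIP2, a gene induced by tumour necrosis factor, had 950 and 881 in the numerator, 97.3 and 30.8 in the second reference and 500 and 390 in the first. ALDH1L2 rose in both, by 3.96 (SE 0.23) in the fourth and 1.54 (SE 0.22) in the third comparison, according to the authors' deposited table, with 87.4 and 83.0 normalised reads in the second reference against 358 and 559 in the first. PTPRN, a protein of secretory granules, had 510 and 479 in the numerator, 104 and 87.1 in the second reference and 385 and 288 in the first, and was called higher in the fourth comparison alone. FLG, the skin barrier protein filaggrin, had 137 and 137 in the numerator, 171 and 152 in the second reference and 579 and 648 in the first, and was called lower in the third comparison alone.

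**Figure D3:**
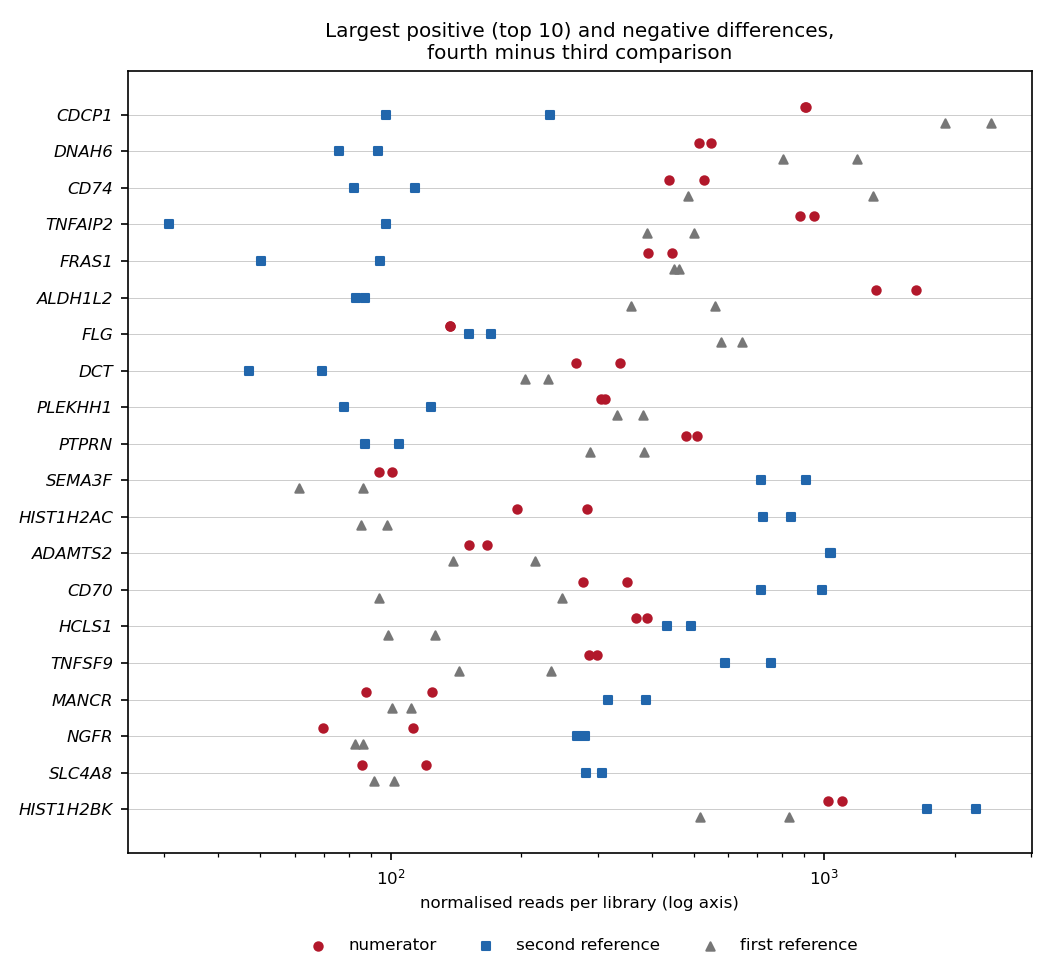
Normalised reads (log axis) in each of the 2 numerator (circles), 2 second reference (squares) and 2 first reference libraries (triangles) for the 10 genes named for a large positive and the 10 named for a large negative difference between the fourth and the third comparison. In the upper 10 the second reference lies below the first, by the widest margin in CDCP1 and DNAH6, and in the lower 10 it lies above it.

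SEMA3F and ADAMTS2 were among the largest negative differences under the same limit. SEMA3F had 86.4 and 61.5 normalised reads in the first reference, near the 101 and 94.1 of the numerator, and for the third comparison the authors' deposited table put it at 0.25 (SE 0.40, adjusted p = 0.71), a difference of -3.45 (SE 0.48, adjusted p = 4.97e-10 by the normal test). PXDN, which was below that limit in the first reference with 45.1 and 25 normalised reads, had a difference of -3.50 (SE 0.63, adjusted p = 1.34e-05). ADAMTS2, which trims procollagen, had 167 and 151 normalised reads in the numerator, 1037 and 1032 in the second reference and 215 and 139 in the first. All 3 genes thus had 4 low libraries and 2 high ones.

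HIST1H2AC, a replication-linked histone H2A gene, had 284 and 196 normalised reads in the numerator, 724 and 837 in the second reference and 85.6 and 98.0 in the first, and was called in opposite directions, with -1.85 (SE 0.24) in the fourth and 1.24 (SE 0.32) in the third by the authors' deposited table. HIST1H2BK, a histone H2B gene, had 1020 and 1100, 1729 and 2236, and 516 and 829. These histone genes have close copies, so that their reads are uncertain. CD70 and TNFSF9, ligands of the tumour necrosis factor family on immune cells, fell in the fourth comparison alone. CD70 had 350 and 277 normalised reads in the numerator, 715 and 989 in the second reference and 248 and 94.1 in the first, and TNFSF9 had 287 and 299, 590 and 755, and 234 and 144. HCLS1, a cortactin relative of blood cells, was the reverse case, with 367 and 390 in the numerator, 433 and 493 in the second reference and 98.4 and 127 in the first, and was called higher in the third comparison alone. NGFR, the low-affinity neurotrophin receptor, the bicarbonate transporter SLC4A8 and the long noncoding RNA MANCR had differences between -1.73 and -1.62.

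**Figure D4:**
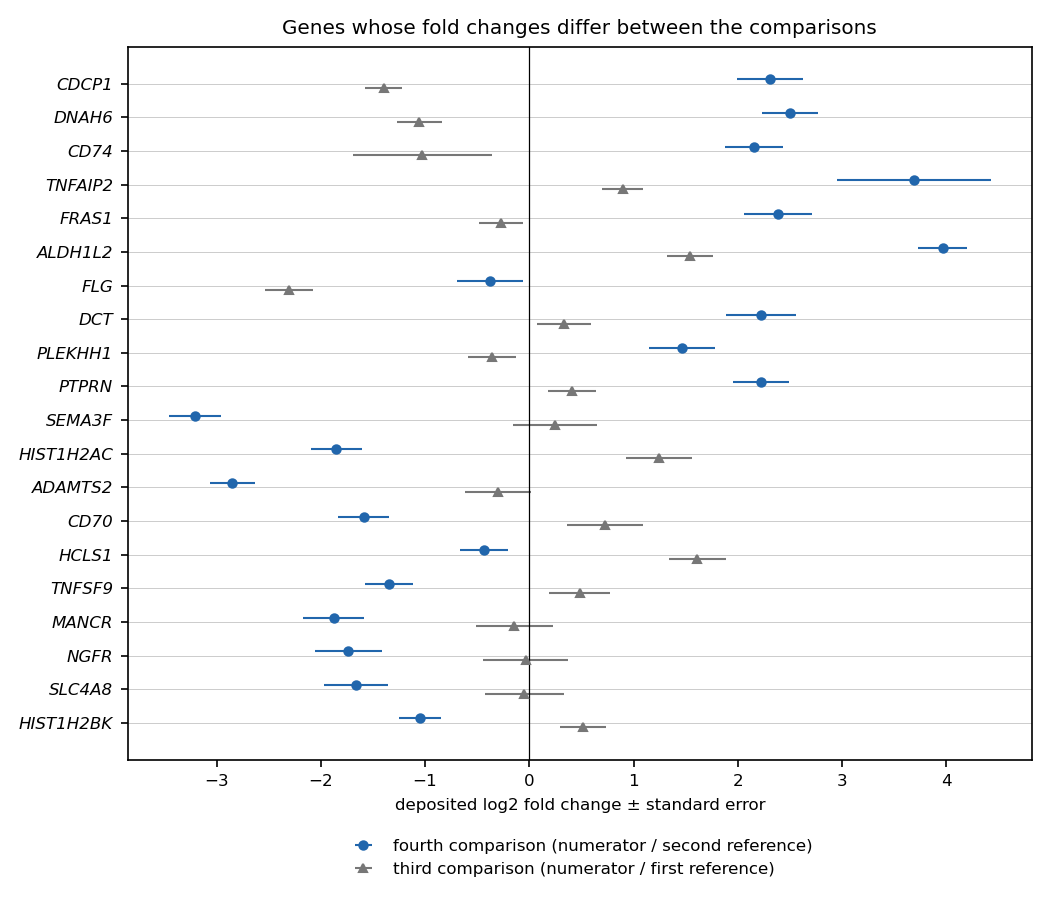
Log2 fold changes with standard errors from the authors' deposited table in the fourth (circles) and the third comparison (triangles) for the 20 genes named for their differences. For CDCP1, DNAH6 and HIST1H2AC both comparisons were called, in opposite directions, while SEMA3F was at -3.21 in the fourth and 0.25 in the third comparison.

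Within the lists, differences were called for 6 of 29 matrix genes, 5 higher and 1 lower in the fourth comparison, against 1.33% and 0.749% of all genes. THBS2, a thrombospondin, had 2547 and 2371 normalised reads in the numerator, 901 and 583 in the second reference and 2301 and 2472 in the first, and by the authors' deposited table it was at 1.58 (SE 0.22) in the fourth and -0.10 (SE 0.15) in the third comparison. FBLN2, fibulin 2, ran the other way, with 103 and 99.1 in the numerator, 360 and 425 in the second reference and 31.5 and 15.4 in the first. The others, named after their values were seen, were COL12A1 (1.62), LAMA3 (1.30), VCAN (1.20) and COL6A3 (1.03), each as a difference of log2 fold changes. In limma without second reference library 2, COL6A3 was at 0.71 (adjusted p = 0.145) and LAMA3 at 1.19 (adjusted p = 0.0801), against 1.03 and 1.30 with all 6 libraries, and 4 of the 6 calls were kept.

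On the cell surface and among matrix proteases, differences ran in both directions. PDPN, the mucin-like glycoprotein podoplanin, had 39.6 and 52.1 normalised reads in the numerator, 813 and 919 in the second reference and 128 and 90.3 in the first, so that by the authors' deposited table it fell by 4.39 (SE 0.28) in the fourth and by 1.40 (SE 0.44) in the third comparison. ITGA1, a collagen-binding integrin chain, had 3389 and 2508 in the numerator, 553 and 342 in the second reference and 1073 and 1129 in the first. MMP1, interstitial collagenase, had 40.7 and 58.5 in the numerator, 317 and 439 in the second reference and 20.3 and 20.2 in the first. MMP2, a gelatinase, was opposite, with 5335 and 4558, 2179 and 2080, and 4128 and 3672. Differences were called for 5 of 28 cell adhesion molecules and 2 of 21 matrix proteases and inhibitors, against 2.07% of all genes tested. In limma without second reference library 2, 1 call of each list was kept, PDPN and MMP1. The adhesion differences by limma were 0.99 for ITGA1 without that library against 1.33 with all 6 (adjusted p = 0.0715), 0.67 against 0.70 for ITGA3 (adjusted p = 0.0544), 1.25 against 1.42 for ITGB4 (adjusted p = 0.172) and 0.81 against 1.02 for DSP (adjusted p = 0.111). For MMP2 they were 0.83 and 0.87 (adjusted p = 0.0501).

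Several genes of growth factor signalling were lower in the second reference than in the first, though their list went both ways. Of 24 receptor tyrosine kinases and ligands, the normal test called 3 higher in the fourth comparison and none lower, against 1.33% and 0.749% of all genes. limma with all 6 libraries called 3 higher and 3 lower, against 6.06% and 4.87% of all genes. The list's median difference was -0.02. VEGFA, the main angiogenic factor, had 6101 and 5696 normalised reads in the numerator, 3481 and 2779 in the second reference and 7056 and 7450 in the first, and the authors' deposited table called it higher in the fourth (0.77, SE 0.18) and lower in the third comparison (-0.44, SE 0.14). EGFR, the epidermal growth factor receptor, had 6317 and 5148, 2553 and 1647, and 3864 and 4551. In the insulin-like growth factor system differences were called for 3 of 15 genes, against 2.07% of all genes tested. These were PAPPA, IRS1 and the receptor IGF1R, all higher in the fourth comparison. PAPPA, a protease that frees these growth factors from their binding proteins, had 920 and 1016 in the numerator, 1400 and 867 in the second reference and 2209 and 3313 in the first, and the adaptor IRS1 had 1175 and 1178, 1965 and 1136, and 2697 and 3603. PAPPA and IRS1 were called lower in the third comparison alone, and second reference library 2 was the lower of its pair in both. Without it the difference by limma was 0.94 for PAPPA (adjusted p = 0.0818), 0.66 for IRS1 (adjusted p = 0.126) and 0.65 for IGF1R (adjusted p = 0.104), against 1.29, 1.06 and 0.95 with all 6 libraries, so that none of the 3 calls was kept. For EGFR it was 0.71 against 1.03 (adjusted p = 0.0893).

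In the PERK and ATF4 list 5 of 25 genes differed, against 2.07% of all genes tested. Not all of these calls were kept by limma without second reference library 2. There the difference was 2.12 for ASNS, asparagine synthetase, and 0.85 for SLC7A5, against 2.63 and 0.85 with all 6 libraries. INHBE, an inhibin subunit gene raised in endoplasmic reticulum stress, had 231 and 164 normalised reads in the numerator, 0 and 1.03 in the second reference and 51.8 and 19.2 in the first. Its second reference libraries held 0 and 1 reads, so no fold is given. GDF15, a stress hormone, had 8203 and 7494 in the numerator, 1769 and 2397 in the second reference and 1017 and 965 in the first, and by the authors' deposited table rose less in the fourth comparison (1.77, SE 0.19) than in the third (2.84, SE 0.14), with an adjusted p of 0.0012 for the difference. In the authors' deposited table SEL1L, an adaptor of protein disposal at the endoplasmic reticulum, rose by 2.30 (SE 0.22) in the fourth and 1.10 (SE 0.15) in the third comparison. HSP90AA1, the inducible HSP90 chaperone, rose by 1.77 (SE 0.17) in the fourth and 0.95 (SE 0.14) in the third comparison, again by the authors' deposited table. The HSPA6 difference was 0.15 (SE 0.97, adjusted p = 0.986), an interval too wide to say that the comparisons gave the same change.

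Some list medians were lower in the fourth comparison, with few differences called per gene by the normal test. In limma with all 6 libraries, 10 of 30 mitosis, 8 of 24 sterol synthesis and 4 of 27 proteasome genes were called lower. None of these lists had a gene called higher, against 4.87% lower and 6.06% higher over all genes. By the authors' deposited table the proteasome median was -0.80 in the fourth and -0.39 in the third comparison. The normal test called the difference for PSMB2 alone among its 27 genes. That proteasome subunit had 2271 and 2485 normalised reads in the numerator, 5375 and 6373 in the second reference and 2726 and 2933 in the first. The mitosis medians were -1.99 and -1.78, and CDC20, BIRC5 and PTTG1 differed, by -1.12, -0.93 and -1.30 in limma with all 6 libraries, and by -1.005, -0.79 and -1.12 without second reference library 2, where none was called (adjusted p = 0.0818, 0.0758 and 0.0614). Sterol synthesis genes had medians of -0.28 and 0.09. MSMO1, a demethylase of that pathway, had 971 and 1027 in the numerator, 975 and 863 in the second reference and 364 and 486 in the first, and was called higher in the third comparison alone. For the p53 list the medians were 0.36 and 0.85 with 9 and 16 of 23 genes higher, and no gene of it passed the difference test by adjusted p, while 6 had an unadjusted p under 0.05, all lower in the fourth comparison, and limma called 5.

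Markers of other cell types were few among the members and moved in both directions. Of 5 macrophage markers 3 rose. Among them, ITGAM had 920 and 520 normalised reads in the numerator against 0.993 and 2.05 in the second reference. CD163 had 134 and 108 against 1.99 and 3.08. The floor came to 29.4 normalised reads, and second reference means were 1.52 for ITGAM, 2.53 for CD163, 20.6 for TRAC and 2.03 for the hepatocyte marker HPX. Such markers are members through the numerator alone, so that counts of rises among markers partly follow from the floor. The summed level of the macrophage list was 81.4 to 115 CPM in the numerator, 15.1 to 16.4 in the second and 40.4 to 85.4 in the first reference. The T and NK cell list, of which IL7R and TRAC were members, had 126 to 176 CPM in the numerator and 21.2 to 22.2 in the second reference, while CD3E had at most 8 reads in any library. Hepatocyte markers summed to 32.9 to 33.4 in the numerator against 1.55 to 2.28 in the second reference. Their part in the changes above was not tested. Epithelial markers, 6 of them members of which 2 rose and 3 fell, summed to 1400 to 1636 CPM in the numerator against 2178 to 2673 in the second reference, and EPCAM and CDH1, which define epithelia, had at most 10 reads in any library.

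The other marker lists had 1 to 8 members each. Fibroblast and mesenchymal markers rose in 1 of 8 and fell in 4, endothelial markers rose in 3 of 5 and fell in 1, neural markers rose in 2 of 5 and fell in 1, and skeletal muscle markers rose in 1 of 3. Of 2 B cell markers 1 rose and 1 fell, of 2 melanocyte markers 1 rose, and the single erythroid marker fell. Adipocyte markers rose in 2 of 3 and fell in 1. Of the rises, PLIN4 had 177 and 119 normalised reads in the numerator against 8.94 and 14.4 in the second reference. GPD1 had 220 and 126 against 0.993 and 2.05. With second reference means of 11.6 and 1.52, both are members through the numerator alone, as is the endothelial marker ERG with 2.02. TIE1, an endothelial receptor, differed between the comparisons, at 704 and 718 normalised reads in the numerator, 658 and 764 in the second reference and 280 and 324 in the first. SDC1, a syndecan on plasma cells and epithelia, fell in both and by more in the fourth comparison, with 1391 and 1810 in the numerator, 6422 and 7233 in the second reference and 3680 and 3579 in the first. Its difference by limma was -0.83 without second reference library 2 (adjusted p = 0.0536) and -0.91 with all 6 libraries.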

How the data were processed

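The submitters profiled RNA of 10 samples and deposited 1 table with 4 comparisons. Per the file headers, each comparison holds a base mean, a log2 fold change with its standard error, a test score, a p-value and an adjusted p-value per gene; the software, build and counting behind them were not given by the labels or headers. The deposited base means are means of normalised reads over a comparison's libraries. No sample could be assigned to any of the 24 columns of values, and 0 columns were taken from other series. The unit changed the plan, since the table held no reads per library. The planned count model was replaced by limma 3.58.1 (voom, R 4.3.3) on whole reads recovered from the steps of the base means (30887 of 30887 genes, largest relative error 5.26e-15). As a check, the recovered reads gave the base mean of the second comparison within 1e-07 for 26752 of 26752 genes.

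Main calls used the deposited adjusted p under 0.05. The difference between the fourth and the third comparison was tested with the deposited standard errors and a two-sided normal test, adjusted over 13358 genes, and was tested on simulated data. Members, lists and tests were chosen with earlier results of these data known. Named genes were the 10 largest rises and falls among called genes with at least 50 normalised reads on the lower side, the 10 largest differences each way, and per list the 4 genes with the smallest p and the 2 with the smallest p of the difference. One gene that this rule would name is counted but not reported here. No sequences are shown. Shares of lists were read against the share of all members called. Calls cover the spread between 2 libraries a set, and a fit that leaves out a library assumes that the remaining one varies like the other sets.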

Additional observations from a re-analysis of the deposited data

Results flagged for a closer look

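By the authors' deposited table, the fourth and the third comparison called 24 genes in opposite directions. The difference of their log2 fold changes passed the normal test for each, an outcome that the choice of opposite calls had nearly fixed. Values are given for 23 of them, and the value that follows each gene is that difference, the fourth minus the third. Higher in the fourth and lower in the third were CDCP1 (3.70), DNAH6 (3.55), LAMA4 (1.78), PACS2 (1.62), HLA-DPA1 (1.59), HAS2 (1.55), CDCA4 (1.22), VEGFA (1.21), GOLGA8A (1.18), PTPRS (1.11), MDN1 (1.11), KIAA1109 (1.04), DDX24 (1.03), PDK1 (1.02), BAG5 (1.01), PLEC (0.976), BIRC6 (0.926) and MELTF (0.84). Lower in the fourth and higher in the third were FAM174B (-2.50), HIST1H2AC (-3.09), ARHGDIB (-3.59), TNFRSF1B (-3.80) and FBLN2 (-4.05).

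HAS2, a hyaluronan synthase, had 686 and 604 normalised reads in the numerator, 377 and 247 in the second reference and 735 and 1097 in the first. LAMA4, a laminin chain of vessel basement membranes, had 1905 and 1693, 719 and 507, and 2174 and 2051. TNFRSF1B, a tumour necrosis factor receptor, had 230 and 188 in the numerator, 459 and 417 in the second reference and 41.3 and 21.1 in the first. For these 3 genes the numerator lay between both references without overlap.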

How the results depend on the processing

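The number of members called in the fourth comparison was 6390. It was 3438 with the labels' selection, an absolute log2 change over 1 with a p under 0.05 not adjusted, and 3308 with that change and an adjusted p under 0.05. It stayed between 4901 and 7685 with a stricter adjusted p, other floors or none, adjustment over the members alone, and centring. limma, an alternative chosen after seeing the data, called 6998, of which 52.4% were higher, and 4063 to 7156 with each library left out, the lowest without numerator library 1. The 277 differences became 20 with standard errors from the first and second comparison, 1163 with the larger standard error alone, 171 with no floor, 115 at an adjusted p under 0.01 and 1461 with limma. With each library left out limma called 135 to 2485 differences, the lowest without second reference library 2 and the highest without second reference library 1. No called value of a named gene changed sign, but the medians of 2 lists did, and the majority of called members turned from lower to higher when centred (52.2% higher) or in limma. Of 172 named genes, 5 lost the call of the fourth comparison without second reference library 2, 5 without numerator library 1 and 1 without numerator library 2; of 77 named differences, 21 were lost without second reference library 2 and 3 without first reference library 2. The median of the insulin-like growth factor list was -0.33 with the floor and 0.06 without it, and that of cell adhesion molecules was -0.13 and 0.17 (0.02 when centred). Without numerator library 1 limma called fewer genes over all members, and fewer in several lists. These were the actin and myosin, p53, autophagy and lysosome, sterol synthesis, fatty acid and triglyceride synthesis, Wnt and epithelial marker lists. The sterol and epithelial lists also had fewer calls without second reference library 2. These drops were not shown to be particular to the lists.

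No paired analysis was possible because the columns carry no replicate numbers. The planned count models were not run, since the table held no reads per library, and the recovered reads were fitted with limma instead. The fit with unequal numbers of libraries per side was not run, since the steps of the base means showed 2 libraries in each set. A depth of 12218881 to 21132383 reads and 2 libraries per set limit what can be called among genes near the floor.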
